A study of Mus musculus with 15 samples.

Results

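The 54 genes described here encode the Wnt pathway, from its ligands to its nuclear effectors. They were taken from a list of mouse symbols and matched by Entrez Gene number, and all 54 were found among the 26301 gene numbers counted. By role they comprised 10 Wnt ligands, 2 genes for ligand processing, 14 receptors and co-receptors, 10 secreted inhibitors and their partners, 10 genes of the β-catenin destruction complex and its nuclear effectors, and 8 genes of the R-spondin axis and of feedback inhibition.

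RNA-seq had been performed on 3T3-L1 cells on day 2 of differentiation. These mouse preadipocytes form adipocytes when insulin, dexamethasone and IBMX are added. The knockdown set consisted of control (sh-Empty) cells, which carried a control hairpin vector, and of JMJD1A-KD (sh-Jmjd1a) cells, which carried a hairpin against Jmjd1a, also named Kdm3a, which encodes an H3K9 demethylase that requires iron. The rescue set consisted of cells that all carried sh-Jmjd1a and in addition expressed 1 of 3 constructs, namely LacZ as a control, hairpin-resistant JMJD1A(WT), or the same protein with a substitution that disrupts iron coordination, JMJD1A(H1122A). Each of the 5 groups had 3 libraries, 15 in all. All groups were stable lines made with pMXs-based retroviral vectors and antibiotic selection, so a difference between lines and a difference between constructs cannot be told apart. The labels do not say that the 3 libraries of a group came from separate cultures, so the p-values measure only the spread between these libraries.

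Wnt proteins are lipid-modified secreted ligands that bind Frizzled receptors together with the co-receptors Lrp5 and Lrp6. This stops a complex of Axin, Apc and Gsk3b from marking β-catenin for degradation, and the β-catenin that accumulates acts with TCF/LEF factors on their target genes. In preadipocytes this branch is known to hold back adipogenesis, with Wnt10b as its best-known ligand, while Ror and Ryk receptors serve branches that do not need β-catenin.

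Total counts per library ranged from 11437058 to 25523148, with a median of 12916162. Kdm3a transcripts, which include those of the constructs, averaged 176.5 ± 7.31 CPM in control cells (SD, n = 3) and 131.7 ± 5.77 in sh-Jmjd1a cells, and 118.8 ± 2.62 with LacZ, 1690 ± 69.0 with JMJD1A(WT) and 2197 ± 92.2 with JMJD1A(H1122A), where CPM stands for counts scaled to the TMM-normalized library total. The summed level of 8 adipocyte markers, none of them at 0, was 5075 to 5175 CPM in sh-Empty, 2653 to 2798 in sh-Jmjd1a, 3365 to 3439 in LacZ, 3815 to 4173 in JMJD1A(WT) and 2589 to 2701 in JMJD1A(H1122A) libraries. All 8 were called lower on knockdown, higher in cells with JMJD1A(WT) than in those with LacZ, and lower in cells with the mutant than in those with JMJD1A(WT). Lpl made up most of these sums, with a mean of 3945 CPM in sh-Empty and 2355 in sh-Jmjd1a cells. On knockdown its log2 fold change was -0.74 ± 0.03, beside a median of -1.61 over the 8 markers. The part of this difference in adipocyte markers in the values below was not tested, and in bulk RNA fewer cells of a type and less RNA per cell cannot be told apart. The summed level of 8 preadipocyte or fibroblast markers was 5823 to 6033 CPM in sh-Empty and 10380 to 10850 in sh-Jmjd1a libraries, and 11770 to 13720 over the rescue set. This rise on knockdown was that of Col1a1 (log2 fold change 1.42 ± 0.04) and Col1a2 (1.00 ± 0.03), which encode type I collagen. The other 6 markers summed to 1677 to 1757 CPM in sh-Empty and 1461 to 1510 in sh-Jmjd1a libraries, and among them Thy1 and Pdgfrb were called higher and Dlk1 (-0.76 ± 0.04) and Ly6a (-0.41 ± 0.12) lower. Markers of macrophages and blood summed to at most 4.05 CPM, of endothelium to at most 0.656 and of epithelium to at most 0.588. The muscle markers Des, Acta1 and Myod1 summed to 14.3 to 16.5 with JMJD1A(WT) and to 2.19 to 5.10 in the other groups. The sum with JMJD1A(WT) was nearly all Des, at 14.2 to 16.5 CPM. Acta1 was at most 0.147 CPM there, and Myod1 was at 0 in every library.

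Of the 14 receptors, 12 were expressed well enough to be tested. Among these, Ror1, Fzd4 and Lrp5 were called higher in JMJD1A-KD cells than in control cells and lower with JMJD1A(WT) than with LacZ. This made 3 of the 12, beside 2.43% of the 12202 genes tested in both sets. The knockdown call of Ror1 and the JMJD1A(WT) call of Fzd4 were lost without some single libraries. The members whose levels went one way on knockdown and the other way on rescue are those on which the account below turns. Besides these 3 receptors, the feedback gene Apcdd1 was among them. Its 250 upstream bases, with 16 CpG dinucleotides at 66% GC, are not shown. The 250 bases upstream of the 3 receptor genes are given here. They were read from NCBIM37, the assembly of mm9, upstream of the gene starts of GENCODE M1, at chr4:99768146-99768395 on the plus strand for Ror1, chr7:96552626-96552875 on the plus strand for Fzd4 and chr19:3686565-3686814 on the minus strand for Lrp5, each 5′ to 3′ with CpG dinucleotides in capitals:
Ror1: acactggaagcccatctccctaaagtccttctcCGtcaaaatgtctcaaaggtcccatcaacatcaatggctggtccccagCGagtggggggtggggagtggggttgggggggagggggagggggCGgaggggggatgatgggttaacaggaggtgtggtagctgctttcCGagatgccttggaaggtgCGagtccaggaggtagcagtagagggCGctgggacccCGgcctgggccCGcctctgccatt
Fzd4: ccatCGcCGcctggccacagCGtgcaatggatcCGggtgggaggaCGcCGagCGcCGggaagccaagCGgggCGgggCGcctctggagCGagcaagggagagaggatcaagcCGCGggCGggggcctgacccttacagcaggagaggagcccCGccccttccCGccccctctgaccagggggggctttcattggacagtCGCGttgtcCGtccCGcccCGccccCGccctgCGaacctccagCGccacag
Lrp5: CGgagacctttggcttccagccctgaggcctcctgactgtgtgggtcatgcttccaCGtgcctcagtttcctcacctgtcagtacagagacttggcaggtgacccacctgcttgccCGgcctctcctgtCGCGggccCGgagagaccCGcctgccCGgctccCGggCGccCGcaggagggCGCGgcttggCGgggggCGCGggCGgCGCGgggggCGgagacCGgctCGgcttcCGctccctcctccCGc
The windows of Fzd4 and Lrp5 held 25 and 24 CpG at 72.8% GC each, and that of Ror1 held 8 CpG at 62.4% GC. The median over the windows of 22375 protein-coding genes was 8 CpG at 54% GC, so Ror1 lay at that median for CpG and Fzd4 and Lrp5 above it. Over the 34 members tested in the rescue set the medians were 19.5 CpG and 65.2% GC, and over the 20 members not tested there they were 16.5 CpG and 59.2% GC. The windows of Ror1 and Fzd4 ended at the RefSeq start (GRCm38.p6) as well, and for Lrp5 no RefSeq start was available to compare.

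The TCF/LEF motif CTTTGAT, searched on both strands, was present in 683 of the 22375 windows (3.05%) and in those of 3 of the 54 members, Nkd1, Tcf7 and Wnt11. Of these, Tcf7, which encodes a TCF/LEF factor itself, was detected in sh-Empty cells and had no counts in the sh-Jmjd1a libraries. Its window is therefore shown with the motif in capitals, at chr11:52096682-52096931 on the minus strand of NCBIM37:
Tcf7: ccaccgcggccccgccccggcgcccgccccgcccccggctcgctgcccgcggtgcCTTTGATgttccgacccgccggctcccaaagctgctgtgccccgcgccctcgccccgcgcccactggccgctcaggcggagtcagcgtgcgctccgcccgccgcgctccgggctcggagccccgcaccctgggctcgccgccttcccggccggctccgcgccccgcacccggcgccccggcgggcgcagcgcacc
This window held 43 CpG at 83.6% GC. Of the 2 RefSeq starts of Tcf7, 1 lies 165 bases downstream of the GENCODE start, so that the window lies further upstream of it. A match of these letters is a description of the window and not evidence of binding.

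The members differed widely in level. Of the 54, 48 had at least 1 count and 6 had none in any library, namely the ligands Wnt2, Wnt6 and Wnt10a, the inhibitors Dkk1 and Wif1, and the feedback gene Nkd1. A count of 0 over all libraries allows a level of up to 0.0144 CPM, taking 3 counts of the pooled total, which covers counting error only. Wnt6 and Wnt10a are neighbours on chromosome 1, 6196 bases apart on the plus strand. The filter on low counts left 30 members for the test of the knockdown and 34 for the tests of the rescue set, where Wnt5b, Wnt9a, Wnt10b and Rspo2 passed in addition. The other 20 members were tested in neither set.

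Lrp5 dominated the counts of the pathway. It took 28.7% to 33% of the members' counts in a library, and the 5 members with most counts, Lrp5, Ctnnb1, Tcf7l1, Wls and Lrp6, took 66.3% over all libraries. Per kilobase of exon, which allows genes to be compared with each other, the level in sh-Empty cells was 210.7 CPM per kb for Lrp5, 108.2 for Ctnnb1, 98.8 for Tcf7l1, 71.3 for Wls and 45.9 for Lgr4. Among the Frizzled receptors, Fzd2 (16.3 CPM per kb), Fzd1 (14.2) and Fzd4 (14.2) had the highest levels in these cells, and among the ligands Wnt4 (4.86) and Wnt5a (3.21). Wnt5b came next among the ligands, at 0.264 CPM per kb. Together the members made up 0.374% to 0.378% of the counts in sh-Empty and 0.421% to 0.429% in sh-Jmjd1a libraries, and 0.433% to 0.451% with LacZ, 0.408% to 0.420% with JMJD1A(WT) and 0.446% to 0.448% with JMJD1A(H1122A). Each of these ranges lay apart from those of the groups it was compared with except LacZ and JMJD1A(H1122A), which overlapped. With Lrp5 left out the share was 0.266% to 0.270% in sh-Empty and 0.291% to 0.299% in sh-Jmjd1a libraries, still without overlap.

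**Figure D1:**
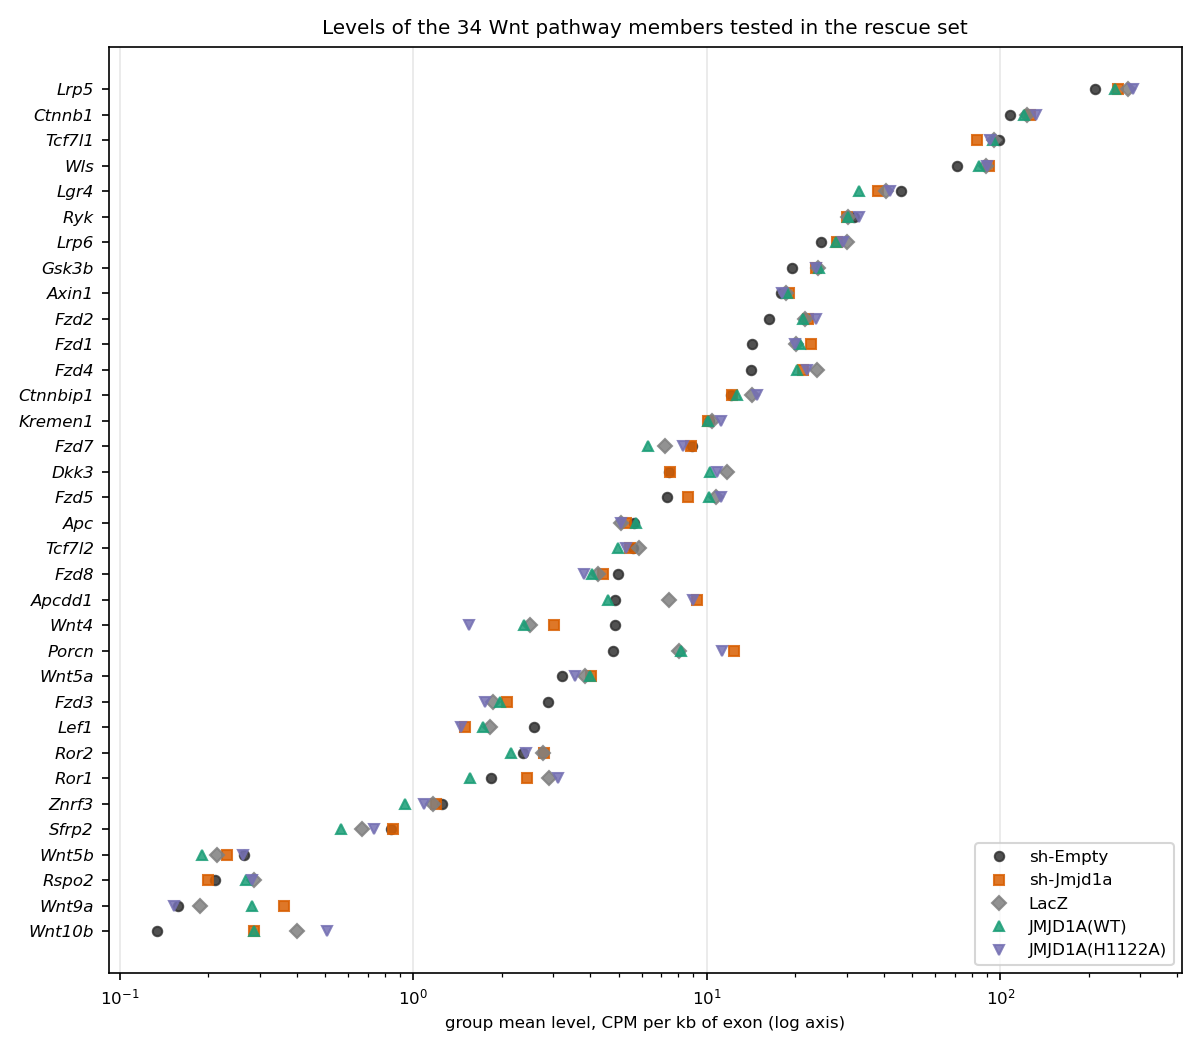
Group mean level of the 34 members tested in the rescue set, in CPM per kilobase of exon on a log axis, with 1 symbol per group of 3 libraries. The knockdown and rescue sets were normalized apart, so symbols compare only within a set. Lrp5 and Ctnnb1 lie at the top in all 5 groups, followed by Tcf7l1 and Wls, and Wnt4, Porcn, Apcdd1 and Ror1 show groups that lie well apart.

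To ask how JMJD1A loss affected the pathway, sh-Jmjd1a cells were compared with sh-Empty cells. Of the 30 members tested, 13 were called higher and 5 lower by edgeR's quasi-likelihood test at an adjusted p under 0.05, beside 22.3% of all genes tested called higher and 23.9% called lower. The higher calls included 7 of the 12 tested receptors and both genes of ligand processing. Calls lower were spread over 1 ligand, 1 receptor, 2 effectors and 1 gene of the R-spondin axis, and none of the 3 inhibitors tested was called. The share of members called in either direction was 60%, against 46.2% of all genes, and the median log2 fold change over the 30 was 0.05, against 0.00 over all genes. Without regard to sign the median log2 fold change was 0.25, close to the 0.22 over all genes.

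When JMJD1A(WT) was compared with LacZ, to ask which differences followed from adding JMJD1A back, 6 of 34 members were called lower and 1 higher, beside 4.52% and 4.98% of all genes called in these directions. The share called in either direction was 20.6%, against 9.50% of all genes. The 6 called lower were Ror1, Apcdd1, Lgr4, Tcf7l2, Fzd4 and Lrp5, and the 1 called higher was Apc. With JMJD1A(H1122A) in place of JMJD1A(WT), which asks about the iron-coordination site, 9 of 34 members were called higher and 2 lower, beside 12.1% and 11.7% of all genes, and 32.4% were called in either direction, against 23.8% of all genes. Between JMJD1A(H1122A) and LacZ, 1 member was called higher, beside 4.78% of all genes, and 1 lower, beside 4.46%, so that 5.88% of the members and 9.24% of all genes were called. The 3 comparisons of the rescue set share libraries in pairs and are not independent of each other.

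The knockdown comparison and that of JMJD1A(WT) with LacZ share no library. Ror1, Apcdd1, Fzd4 and Lrp5 were called higher on knockdown and lower with JMJD1A(WT), 4 of the 30 members tested in both sets, beside 2.43% of the 12202 genes tested in both. None of the members was called lower on knockdown and higher with JMJD1A(WT), beside 2.75% of these genes. With 30 members, a count of 0 lies near this share. DESeq2 gave the same count of 0, and so did edgeR at an unadjusted p under 0.05. The shares of all genes at these settings are not given here.

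**Figure D2:**
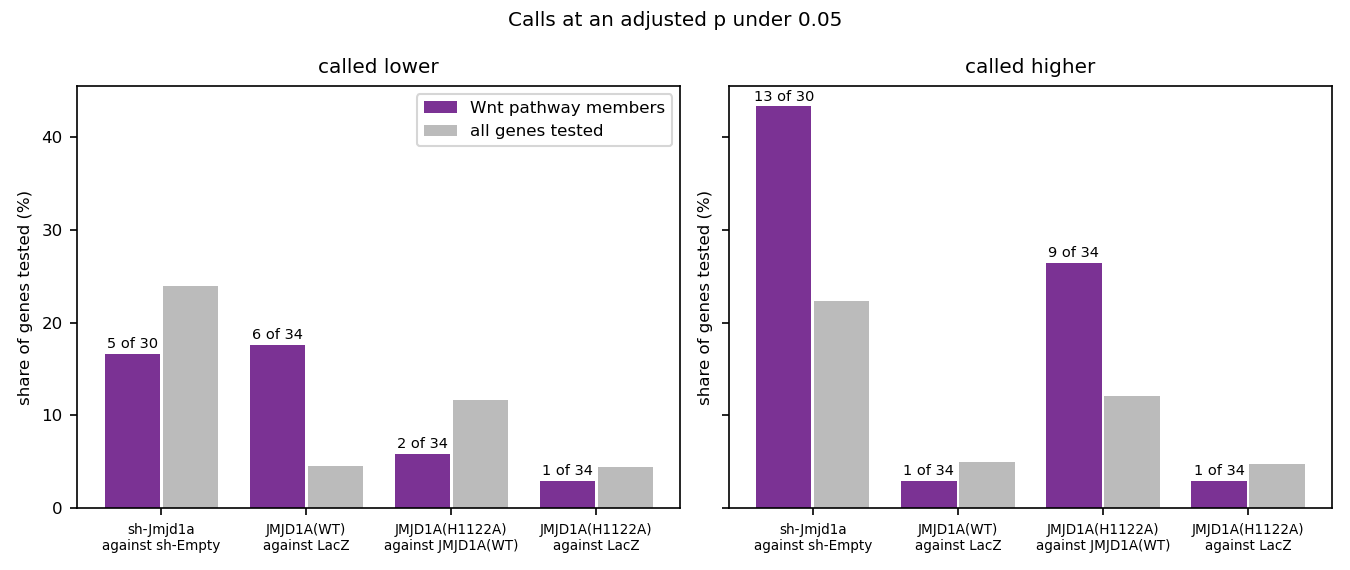
Share of genes called lower (left) and higher (right) in each of the 4 comparisons at an adjusted p under 0.05, in percent of the genes tested, for the Wnt pathway members (purple, with their number) and for all genes (grey). Members called higher on knockdown, at 13 of 30, and called lower with JMJD1A(WT), at 6 of 34, stand above the bars of all genes.

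**Figure D3:**
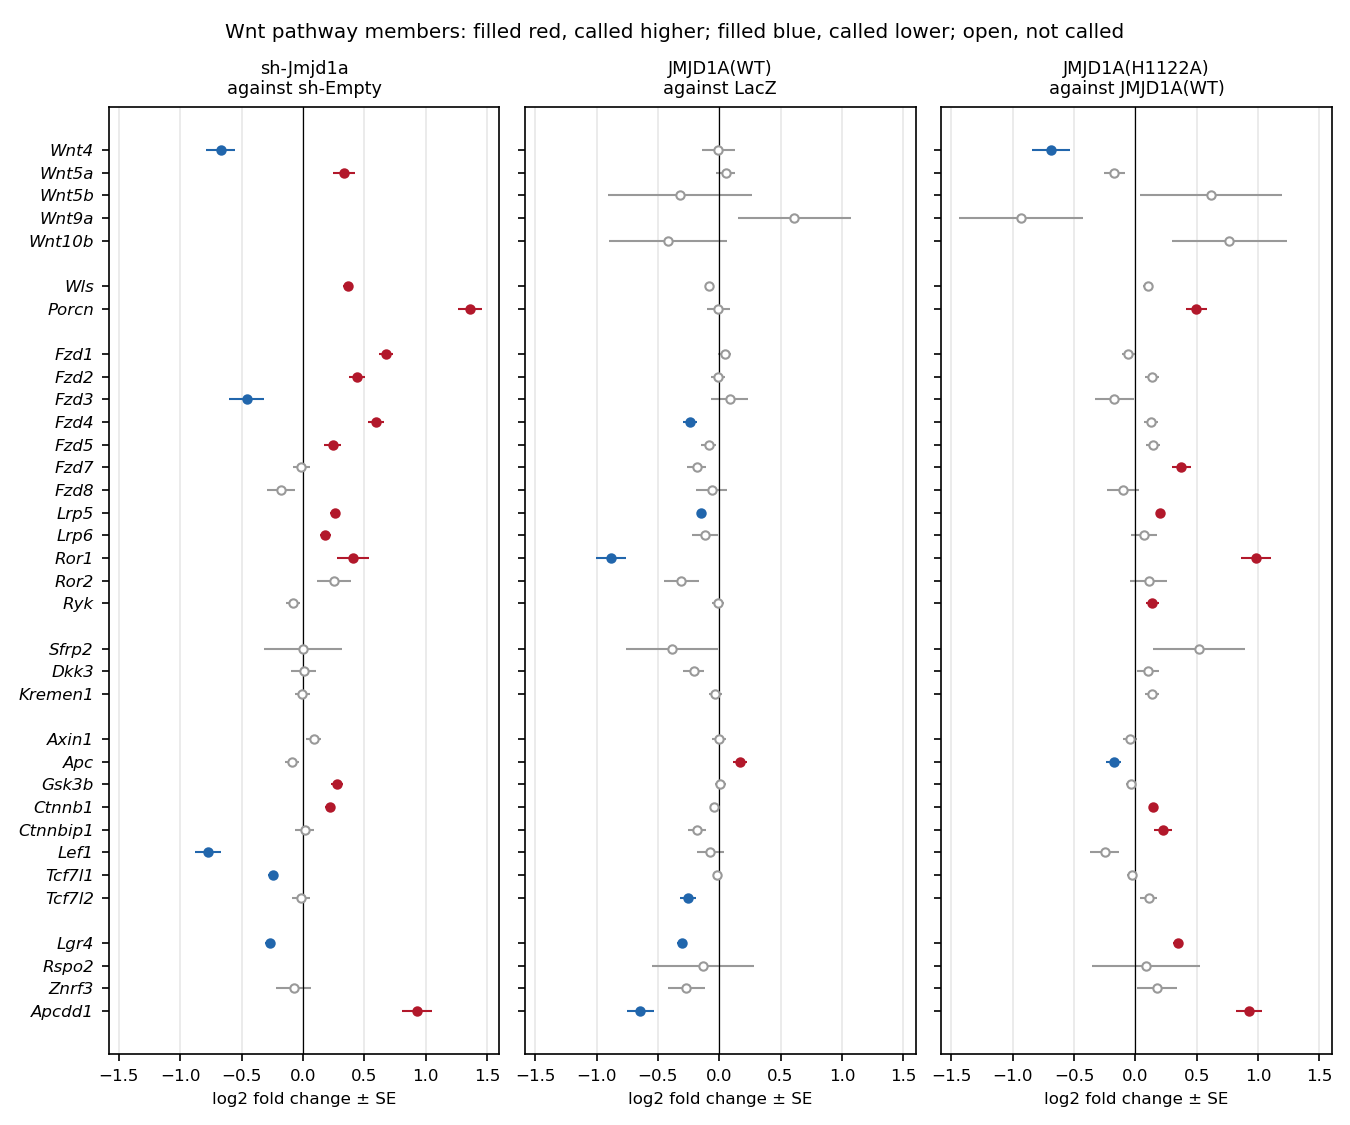
Log2 fold change with its standard error for the tested members, grouped by role from ligands (top) to feedback genes (bottom), in 3 comparisons fitted with edgeR. Red and blue mark members called higher and lower and open symbols those not called. Porcn and Apcdd1 had the highest values on knockdown and Lef1 and Wnt4 the lowest.

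Among the ligands, Wnt4 fell and Wnt5a rose in JMJD1A-KD cells. Wnt4, a ligand found in several mesenchymal tissues, lies on chromosome 4 from 136833404 to 136855641. Its level was 22.8, 20.8 and 17.5 CPM in sh-Empty and 12.9, 12.8 and 12.3 in sh-Jmjd1a libraries, without overlap, and the log2 fold change was -0.67 ± 0.12 (SE, edgeR adjusted p = 2.48e-05). In the rescue set it was 11, 10.05 and 10.4 CPM with LacZ, 9.40, 8.52 and 12.1 with JMJD1A(WT) and 6.73, 5.91 and 6.85 with JMJD1A(H1122A). The mutant libraries were thus the lowest of the set, and JMJD1A(WT) overlapped with LacZ (log2 fold change -0.01 ± 0.14, edgeR adjusted p = 0.989). The call of the mutant against JMJD1A(WT) was lower, at a log2 fold change of -0.69 ± 0.16 (edgeR adjusted p = 0.000719), as was that against LacZ, at -0.70 ± 0.16 (edgeR adjusted p = 0.00298). The first of these calls was lost without JMJD1A(WT) replicate 3, at a log2 fold change of -0.47.

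Wnt5a, a ligand mainly of the β-catenin-independent branches, was at 25.6, 26.6 and 23.1 CPM in sh-Empty and 31.7, 29.1 and 33.6 in sh-Jmjd1a libraries. The groups did not overlap, and the log2 fold change was 0.34 ± 0.09 (edgeR adjusted p = 0.00246). Its 9 libraries of the rescue set lay between 25.9 and 32.9 CPM with overlap between all groups, and no comparison called it. An exon of the predicted gene Gm2670 overlaps Wnt5a on the opposite strand, and whether the counting used strand is not given in the sources used here.

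Wnt10b, the ligand best known in preadipocytes, was close to the limit of detection. It had 6, 1 and 5 counts in sh-Empty and 2, 15 and 8 in sh-Jmjd1a libraries, at most 1.21 CPM, and did not pass the filter there. With the constructs it was at 0.400, 1.63 and 0.778 CPM with LacZ, 1.03, 0.235 and 0.739 with JMJD1A(WT) and 1.33, 0.948 and 1.29 with JMJD1A(H1122A). These groups overlapped, and the differences of JMJD1A(H1122A) from JMJD1A(WT), at a log2 fold change of 0.77 ± 0.47 (edgeR adjusted p = 0.258), and of JMJD1A(WT) from LacZ (edgeR adjusted p = 0.706) were not detectable at this depth. Wnt5b and Wnt9a stayed at 1.71 CPM or less in all libraries and were not called. Wnt11 and Wnt16 had 3 counts each over all libraries.

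Both genes of ligand processing rose on knockdown. Porcn, the acyltransferase that attaches the lipid Wnt proteins need for secretion, had the largest log2 fold change of all members tested there. It was at 13.7, 14.1 and 15.5 CPM in sh-Empty and 34.1, 40.4 and 37.0 in sh-Jmjd1a libraries, far from overlap, with a log2 fold change of 1.36 ± 0.10 (edgeR adjusted p = 1.75e-12). The level was 24.9, 24.4 and 23.1 CPM with LacZ and 27.7, 24.6 and 21.3 with JMJD1A(WT), which overlapped, with a log2 fold change of -0.01 ± 0.09 (edgeR adjusted p = 0.981). With JMJD1A(H1122A) it was at 33.4, 33.5 and 34.7 CPM. All mutant libraries were above all others of the set, with a log2 fold change of 0.50 ± 0.09 against JMJD1A(WT) (edgeR adjusted p = 2.20e-05) and 0.49 ± 0.09 against LacZ (edgeR adjusted p = 0.000171). Porcn and Wnt4 were the members called between JMJD1A(H1122A) and LacZ.

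Wls, the carrier that brings Wnt proteins to the cell surface, rose from 235.5 ± 4.28 to 303.2 ± 3.19 CPM (SD, n = 3) on knockdown, with a log2 fold change of 0.36 ± 0.04 (edgeR adjusted p = 1.63e-08). Its level was 294.7 ± 9.18 CPM with LacZ, 278.5 ± 4.84 with JMJD1A(WT) and 298.5 ± 3.81 with JMJD1A(H1122A), and none of these differences was called. The libraries of LacZ and JMJD1A(WT) did not overlap for Wls, at an edgeR adjusted p of 0.228.

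The receptors were the largest group of members tested. On knockdown 8 of the 12 tested were called (66.7%), beside 60% of all members tested and 46.2% of all genes. Ror1, a receptor tyrosine kinase-like protein that binds Wnt5a, was among the members with the lowest levels that were called. It was at 10.4, 11.3 and 10.0 CPM in sh-Empty and 14.8, 15.4 and 11.9 in sh-Jmjd1a libraries, with a log2 fold change of 0.41 ± 0.13 (edgeR adjusted p = 0.0112). Although the groups did not overlap, this call was lost without sh-Empty replicate 3, at 0.37, and without sh-Jmjd1a replicate 2, at 0.34. With the constructs Ror1 was at 17.7, 14.7 and 17.8 CPM with LacZ, 10.1, 7.43 and 9.37 with JMJD1A(WT) and 19.0, 17.6 and 17.2 with JMJD1A(H1122A). The JMJD1A(WT) libraries stood below all others. Relative to LacZ, Ror1 fell by 0.88 ± 0.12 on a log2 scale in cells with JMJD1A(WT) (edgeR adjusted p = 5.46e-07) and was higher by 0.98 ± 0.12 with JMJD1A(H1122A) than with JMJD1A(WT) (edgeR adjusted p = 2.49e-08), the largest changes among the members in both comparisons. Between JMJD1A(H1122A) and LacZ the libraries overlapped and the log2 difference was 0.10 ± 0.11 (edgeR adjusted p = 0.680).

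Fzd4, a Frizzled receptor that also binds norrin, was at 51.5, 58.0 and 46.9 CPM in sh-Empty and 79.1, 79.1 and 77.2 in sh-Jmjd1a libraries. All knockdown libraries were above the control libraries, with a log2 fold change of 0.60 ± 0.07 (edgeR adjusted p = 2.58e-08). The levels were 94.8, 84.5 and 82.9 CPM with LacZ, 77.2, 74.2 and 72.0 with JMJD1A(WT) and 81.8, 81.6 and 79.2 with JMJD1A(H1122A). JMJD1A(WT) was again below the other groups without overlap, but the mutant lay between them. The log2 fold change was -0.24 ± 0.06 for JMJD1A(WT) against LacZ (edgeR adjusted p = 0.00272), which was not called without LacZ replicate 1, at -0.18, and 0.12 ± 0.06 for JMJD1A(H1122A) against JMJD1A(WT) (edgeR adjusted p = 0.119), which was not called.

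Lrp5, a co-receptor of Frizzled proteins, was at 1095, 1088 and 1086 CPM in sh-Empty and 1346, 1295 and 1271 in sh-Jmjd1a libraries, and at 1450, 1354 and 1429 with LacZ, 1291, 1233 and 1296 with JMJD1A(WT) and 1492, 1443 and 1464 with JMJD1A(H1122A). The differences were small and regular, and the groups compared did not overlap apart from LacZ and JMJD1A(H1122A). The log2 fold change was 0.26 ± 0.04 on knockdown (edgeR adjusted p = 5.84e-07), -0.15 ± 0.03 for JMJD1A(WT) against LacZ (edgeR adjusted p = 0.00156) and 0.20 ± 0.03 for JMJD1A(H1122A) against JMJD1A(WT) (edgeR adjusted p = 5.43e-06). These 3 calls held under all the alternatives run for them. Its close relative Lrp6 rose by 0.18 ± 0.04 on the log2 scale on knockdown (edgeR adjusted p = 0.000845), a call lost with all 15 libraries in one fit, and was not called in the rescue set.

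Fzd1 and Fzd2, both Frizzled receptors encoded by single exons, rose on knockdown and were not called in the rescue set. Whether the 2 responses differ was not tested. Fzd1 was at 63.5, 61.8 and 61.1 CPM in sh-Empty and 100.9, 100 and 97.1 in sh-Jmjd1a libraries, with a log2 fold change of 0.68 ± 0.06 (edgeR adjusted p = 4.08e-11). Fzd2 was at 64.1, 54.7 and 59.0 CPM in sh-Empty and 81.3, 83.5 and 75.9 in sh-Jmjd1a libraries, with a log2 fold change of 0.44 ± 0.06 (edgeR adjusted p = 1.95e-06). The control and knockdown libraries overlapped for neither gene. With JMJD1A(WT) against LacZ the log2 fold change was 0.04 ± 0.05 for Fzd1 (edgeR adjusted p = 0.723) and -0.01 ± 0.06 for Fzd2 (edgeR adjusted p = 0.961), with overlapping libraries. Fzd5 also rose on knockdown, by 0.24 ± 0.07 on the log2 scale (edgeR adjusted p = 0.00519).

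Fzd3 went the other way. It was at 13.7, 11.1 and 11.6 CPM in sh-Empty and 9.25, 7.66 and 9.48 in sh-Jmjd1a libraries, with a log2 fold change of -0.46 ± 0.14 (edgeR adjusted p = 0.00847) and no overlap. This call was lost without sh-Empty replicate 1 or without sh-Jmjd1a replicate 2, at -0.37 in both cases. Fzd7 overlapped between the groups of the knockdown set (edgeR adjusted p = 0.908), and with the constructs was at 35.4, 35.7 and 33.0 CPM with LacZ, 30.1, 28.5 and 32.1 with JMJD1A(WT) and 38.7, 36.8 and 43.4 with JMJD1A(H1122A). The 3 groups did not overlap for Fzd7, and the mutant was called higher than JMJD1A(WT), at a log2 fold change of 0.37 ± 0.08 (edgeR adjusted p = 0.000304), while JMJD1A(WT) against LacZ was not called (edgeR adjusted p = 0.157). Ryk, an atypical kinase receptor for Wnt proteins, was called higher with JMJD1A(H1122A) than with JMJD1A(WT) at an edgeR adjusted p of 0.0449. This call was kept under 8 of 15 alternatives and lost without replicate 2 or 3 of JMJD1A(H1122A) or replicate 1 or 3 of JMJD1A(WT), with log2 fold changes of 0.10 to 0.16 over the alternatives. Fzd8 and Ror2 were not called in any comparison, and Fzd6 and Fzd9 had 2 counts each.

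**Figure D4:**
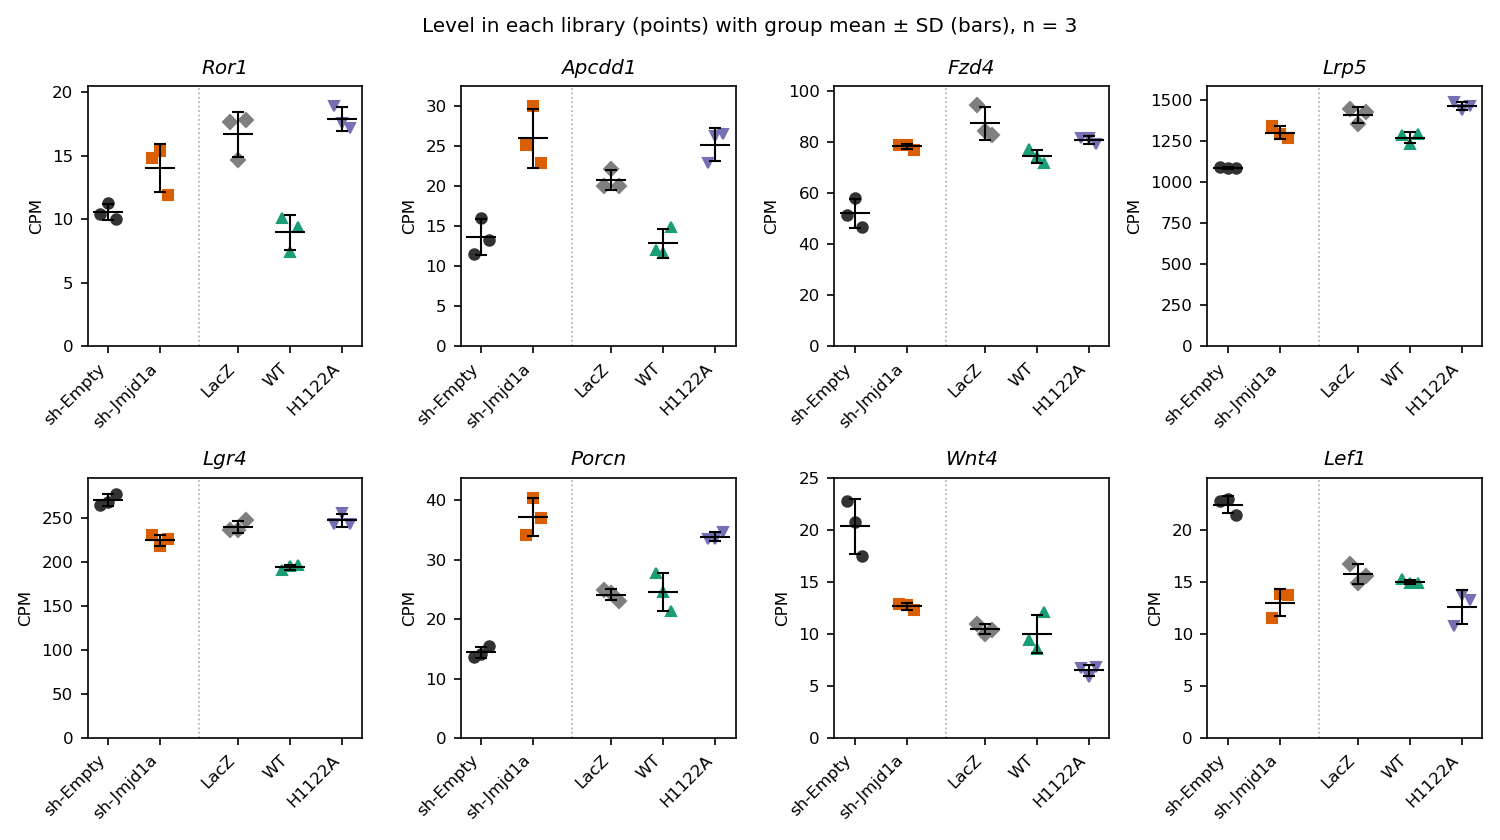
Level of 8 members in each library, in CPM on axes that start at 0, with the group mean and SD (n = 3) as bars. The dotted line separates the knockdown set (left) from the rescue set (right), which were normalized apart. For Ror1, Apcdd1 and Lgr4 the 3 JMJD1A(WT) libraries lie below all other libraries of the rescue set, and for Porcn the 3 JMJD1A(H1122A) libraries lie above them.

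The secreted inhibitors were mostly undetected or near the limit of detection, and none of the 3 that were tested was called. Of all genes, 46.2% were called on knockdown and 9.24% to 23.8% in the comparisons of the rescue set. A list of 3 genes is too short to set against these shares. Sfrp1, which binds Wnt proteins and is known to favour adipogenesis, had 8 counts over all libraries and at most 0.323 CPM. Sfrp5, a relative of Sfrp1 known from adipose tissue, was at 0.441, 0.431 and 0.647 CPM in sh-Empty and 0.174, 0.161 and 0.0777 in sh-Jmjd1a libraries, which did not overlap. These levels rest on 5, 5 and 10 counts against 2, 2 and 1, below the filter, and without a filter the edgeR adjusted p was 0.0748. Sfrp5 in the rescue set was between 0 and 0.661 CPM with overlap between the groups. Sfrp4, Frzb and Dkk2 had 2, 6 and 19 counts over all libraries, and 11 of those of Dkk2 were in a single one, LacZ replicate 2.

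The tested inhibitors were Kremen1, Dkk3 and Sfrp2. Kremen1, a Dkk receptor that removes Lrp6 from the cell surface, was at 78.9 ± 3.53 CPM (SD, n = 3) in sh-Empty and 78.4 ± 4.30 in sh-Jmjd1a cells, and Dkk3, a divergent Dickkopf family member, at 25.0 ± 1.59 and 25.1 ± 3.43. The log2 fold changes on knockdown were -0.01 ± 0.06 for Kremen1 (edgeR adjusted p = 0.954), 0.00 ± 0.10 for Dkk3 (edgeR adjusted p = 0.976) and 0.00 ± 0.32 for Sfrp2 (edgeR adjusted p = 0.997). The standard error for Sfrp2 was the largest of the 3, at a level of 2.18 CPM or less. At an unadjusted p under 0.05, edgeR gave none of them on knockdown, Dkk3 for JMJD1A(WT) against LacZ, and Kremen1 for JMJD1A(H1122A) against JMJD1A(WT). The share of all genes at this threshold is not given here. An exon of Gm16790 overlaps Sfrp2 on the opposite strand.

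Among the destruction complex and effectors, β-catenin itself and Gsk3b rose on knockdown while 2 TCF/LEF factors fell. Ctnnb1, which encodes β-catenin, was at 548.9, 543.8 and 562.8 CPM in sh-Empty and 639.3, 645.8 and 642.2 in sh-Jmjd1a libraries. The groups lay well apart, with a log2 fold change of 0.22 ± 0.04 (edgeR adjusted p = 1.35e-05). With the constructs it was at 639.8, 637.4 and 609.9 CPM with LacZ, 603.6, 616.7 and 615.2 with JMJD1A(WT) and 655.0, 680.8 and 690.6 with JMJD1A(H1122A). The mutant libraries were the highest, by a log2 fold change of 0.14 ± 0.04 over JMJD1A(WT) (edgeR adjusted p = 0.00170), while JMJD1A(WT) overlapped with LacZ (-0.04 ± 0.04, edgeR adjusted p = 0.586). An exon of Ulk4 overlaps Ctnnb1 on the opposite strand. Transcript levels do not give the amount of β-catenin protein, which was not measured here.

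Gsk3b, the kinase that marks β-catenin for degradation, rose by 0.28 ± 0.05 on the log2 scale on knockdown (edgeR adjusted p = 2.97e-05) and was not called in the rescue set. Axin1, the scaffold of the complex, was not called in any comparison. Apc, its other scaffold, was not called on knockdown (edgeR adjusted p = 0.200). It was at 85.5, 76.5 and 79.7 CPM with LacZ, 92.6, 83.2 and 94.8 with JMJD1A(WT) and 84.6, 78.6 and 77.2 with JMJD1A(H1122A), and JMJD1A(WT) overlapped with both other groups. JMJD1A(WT) was called higher than LacZ at a log2 fold change of 0.17 ± 0.06 (edgeR adjusted p = 0.0496), a call kept under 6 of 15 alternatives and lost without LacZ replicate 2 (0.13) or 3 (0.16) and without JMJD1A(WT) replicate 1 (0.15) or 3 (0.12). The mutant was called lower than JMJD1A(WT) at -0.18 ± 0.06 (edgeR adjusted p = 0.0197), a call kept under 10 of 15 alternatives and lost without JMJD1A(H1122A) replicate 2 (-0.16) or 3 (-0.15) and without JMJD1A(WT) replicate 1 (-0.16) or 3 (-0.13).

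Lef1, a TCF/LEF factor that is itself a target of β-catenin, had the largest fall of all members tested on knockdown. It was at 22.7, 22.9 and 21.4 CPM in sh-Empty and 11.5, 13.8 and 13.7 in sh-Jmjd1a libraries, with a log2 fold change of -0.77 ± 0.11 (edgeR adjusted p = 8.59e-07) and no overlap. Its level was 16.7, 14.9 and 15.6 CPM with LacZ, 15.2, 14.9 and 14.9 with JMJD1A(WT) and 10.7, 13.7 and 13.3 with JMJD1A(H1122A). The mutant libraries were the lowest, but neither difference of the mutant was called, at an edgeR adjusted p of 0.124 against JMJD1A(WT) and 0.0860 against LacZ. JMJD1A(WT) and LacZ overlapped (log2 fold change -0.07 ± 0.11, edgeR adjusted p = 0.786).

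Tcf7l1, mostly a repressor and by far the most abundant TCF/LEF transcript here, was at 334.4, 326.2 and 324.3 CPM in sh-Empty and 289.1, 272.2 and 271.3 in sh-Jmjd1a libraries. It fell by 0.24 ± 0.04 on the log2 scale (edgeR adjusted p = 1.66e-05) without overlap, and its levels in the rescue set, between 299.3 and 332.3 CPM, overlapped between all groups. An exon of Gm15401 overlaps Tcf7l1 on the opposite strand. Tcf7l2, a TCF factor with a known part in adipocytes, was at 47.8, 52.7 and 45.8 CPM in sh-Empty and 44.8, 49.3 and 49.8 in sh-Jmjd1a libraries, and these overlapped (edgeR adjusted p = 0.873). With LacZ it was at 53.5, 50.8 and 49.5 CPM, with JMJD1A(WT) at 45.8, 42.99 and 41.2 and with JMJD1A(H1122A) at 49.8, 44.3 and 44.98. JMJD1A(WT) was below LacZ in every library, with a log2 fold change of -0.25 ± 0.07 (edgeR adjusted p = 0.00925), and this call was lost without LacZ replicate 1, at -0.22, and without JMJD1A(WT) replicate 3, at -0.21.

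Tcf7, whose upstream window is shown above with its TCF/LEF motif, had 16, 3 and 6 counts in sh-Empty and none in the 3 sh-Jmjd1a libraries. This is 0.647 CPM over the control libraries together, 7.89 times the 0.0820 CPM that 3 counts make over the knockdown libraries together. The ratio leaves out the counting error and the spread of the control libraries, so it is not a bound on the fall. Most of the control counts were in sh-Empty replicate 1, and without that library the ratio was 4.04. Tcf7 did not pass the filter. Without a filter its edgeR adjusted p was 0.000486 with all libraries and 0.0267 without sh-Empty replicate 1. With the constructs it had 0 to 9 counts per library, with overlap between LacZ and JMJD1A(WT). Cells with LacZ, which carry sh-Jmjd1a too, had 1, 1 and 2 counts. Axin2, the most widely used target of β-catenin, had 4 counts in sh-Empty replicate 1 (0.352 CPM) and none in the other libraries, where 3 counts correspond to 0.118 to 0.262 CPM. Ctnnbip1, which blocks the binding of β-catenin to TCF factors, was called higher with JMJD1A(H1122A) than with JMJD1A(WT), at a log2 fold change of 0.23 ± 0.07 (edgeR adjusted p = 0.0216), and in no other comparison. This call was kept under 11 of 15 alternatives and lost without replicate 1 or 3 of JMJD1A(H1122A) or replicate 3 of JMJD1A(WT), with log2 fold changes of 0.17 to 0.27 over the alternatives. An exon of Gm13066 overlaps it on the opposite strand.

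In the R-spondin axis and among feedback inhibitors, Apcdd1 and Lgr4 carried the changes. Apcdd1, a membrane inhibitor of Wnt signaling and a target of β-catenin, was at 11.5, 16.03 and 13.3 CPM in sh-Empty and 25.1, 30.0 and 22.9 in sh-Jmjd1a libraries, with a log2 fold change of 0.93 ± 0.12 (edgeR adjusted p = 3.11e-07). The level was 20.1, 22.2 and 20.1 CPM with LacZ, 11.98, 11.7 and 14.97 with JMJD1A(WT) and 22.9, 26.2 and 26.5 with JMJD1A(H1122A). No 2 groups overlapped within a set, and JMJD1A(WT) was the lowest. The log2 fold change was -0.64 ± 0.11 for JMJD1A(WT) against LacZ (edgeR adjusted p = 2.19e-05), 0.92 ± 0.11 for JMJD1A(H1122A) against JMJD1A(WT) (edgeR adjusted p = 2.85e-09) and 0.28 ± 0.10 for JMJD1A(H1122A) against LacZ (edgeR adjusted p = 0.0759), of which the last was not called.

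Lgr4, the receptor through which R-spondins strengthen Wnt signaling, was lower both on knockdown and with JMJD1A(WT). It was at 264.8, 268.3 and 277.8 CPM in sh-Empty and 230.7, 217.9 and 226.1 in sh-Jmjd1a libraries, and at 236.5, 236.2 and 247.5 with LacZ, 190.9, 195.3 and 196.6 with JMJD1A(WT) and 243.0, 256.1 and 243.1 with JMJD1A(H1122A). Neither control overlapped with the group compared with it, and the mutant overlapped with LacZ. The log2 fold change was -0.27 ± 0.04 on knockdown (edgeR adjusted p = 5.97e-06), -0.30 ± 0.04 for JMJD1A(WT) against LacZ (edgeR adjusted p = 2.45e-07) and 0.35 ± 0.04 for JMJD1A(H1122A) against JMJD1A(WT) (edgeR adjusted p = 4.43e-09). Unlike Ror1, Apcdd1, Fzd4 and Lrp5, Lgr4 was therefore not called in opposite directions by knockdown and rescue. All 3 calls held under every alternative run for them.

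Znrf3, a ubiquitin ligase that removes Frizzled receptors and is antagonized by R-spondins, was between 6.25 and 10.9 CPM and was not called in any comparison. The ligand Rspo2 was at 1.20 CPM or less, and Rspo3 had 94 counts over all libraries. Of the feedback genes that respond to β-catenin in many tissues, Rnf43 had 1 count, Nkd2 had 3 and Nkd1 none.

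A fixed list of 87 other genes of the pathway, among them Dishevelled, Groucho and planar cell polarity genes, was counted for comparison, and 61 of them were tested. On knockdown 13 were called lower and 18 higher, 50.8% of those tested, against 46.2% of all genes and 60% of the members. With JMJD1A(WT) against LacZ 4 were lower and 2 higher (9.84%, against 9.50% of all genes), with JMJD1A(H1122A) against JMJD1A(WT) 6 were lower and 6 higher (19.7%, against 23.8%), and with JMJD1A(H1122A) against LacZ 5 were lower and 4 higher (14.8%, against 9.24%). The largest change in all 4 comparisons was that of Igfbp4, an IGF-binding protein that also binds Lrp6 and Frizzled and inhibits Wnt signaling. Igfbp4 was at 956.1, 936.3 and 932.7 CPM in sh-Empty and 359.1, 372.3 and 322.9 in sh-Jmjd1a libraries, and at 340.3, 347.4 and 342.9 with LacZ, 668.4, 665.4 and 634.1 with JMJD1A(WT) and 161.4, 159.6 and 175.4 with JMJD1A(H1122A). The groups compared within a set stood apart, with log2 fold changes of -1.42 ± 0.04 on knockdown (edgeR adjusted p = 3.15e-20), 0.93 ± 0.04 for JMJD1A(WT) against LacZ (edgeR adjusted p = 2.34e-23) and -1.99 ± 0.04 for JMJD1A(H1122A) against JMJD1A(WT) (edgeR adjusted p = 2.29e-35). This inhibitor was thus lower on knockdown and higher with JMJD1A(WT).

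Among the called genes of this list, the next largest changes on knockdown were those of Plcb1, a phospholipase of the calcium branch, with a log2 fold change of -0.73 ± 0.05, of Bambi, a pseudoreceptor, with 0.67 ± 0.25, and of Prickle2, of the planar polarity branch, with 0.62 ± 0.08. Plcb4, a relative of Plcb1, fell by 0.46 ± 0.09 (log2) in cells with JMJD1A(WT) relative to LacZ, while Prickle1 rose by 0.26 ± 0.07 and Camk2d, a calcium-dependent kinase, fell by 0.25 ± 0.04. With JMJD1A(H1122A) against JMJD1A(WT) the log2 fold change was 0.81 ± 0.09 for Plcb4, 0.51 ± 0.06 for Vangl1, of the planar polarity branch, and 0.45 ± 0.07 for Prickle2. Against LacZ the mutant had higher Tle2, a Groucho co-repressor, by 0.55 ± 0.08, Plcb4 by 0.35 ± 0.09 and Prickle2 by 0.28 ± 0.07, and lower Igfbp4, by -1.06 ± 0.04 (all called by edgeR at an adjusted p under 0.05).

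Genes in wide use as readouts of β-catenin and TCF/LEF activity did not move in one direction. Of a fixed list of 22, of which 9 are members, 12 were tested, and on knockdown 3 were called lower and 7 higher (83.3%, against 46.2% of all genes called in either direction). With JMJD1A(WT) against LacZ 3 were lower and 1 higher (33.3%, against 9.50%), with JMJD1A(H1122A) against JMJD1A(WT) 3 were lower and 4 higher (58.3%, against 23.8%), and with JMJD1A(H1122A) against LacZ 1 was higher (8.33%, against 9.24%). Among the 9 tested genes outside the members, Ccn4, also named Wisp1, had the largest change on knockdown, from 8.99, 8.62 and 7.90 CPM in sh-Empty to 26.3, 27.8 and 28.8 in sh-Jmjd1a libraries (log2 fold change 1.71 ± 0.11, edgeR adjusted p = 2.69e-13). Cd44, a hyaluronan receptor, rose by 0.80 ± 0.04 on the log2 scale (edgeR adjusted p = 1.16e-15), whereas Fosl1, of the AP-1 family, fell by 0.99 ± 0.11 (edgeR adjusted p = 1.11e-08) and Myc fell by 0.60 ± 0.05 (edgeR adjusted p = 3.60e-10). Cyclin D1, encoded by Ccnd1, was not called (log2 fold change -0.03 ± 0.06, edgeR adjusted p = 0.737). For JMJD1A(WT) against LacZ, Cd44 was called lower, at a log2 fold change of -0.38 ± 0.04 (edgeR adjusted p = 4.27e-10). Sox9 was called lower as well (-0.27 ± 0.04, edgeR adjusted p = 1.47e-05). Ccn5 was called higher there (0.62 ± 0.15, edgeR adjusted p = 0.00319), as it was on knockdown (0.55 ± 0.17, edgeR adjusted p = 0.0111). Ccn4 (-0.09 ± 0.10, edgeR adjusted p = 0.674), Fosl1 (0.20 ± 0.11, 0.342), Myc (0.18 ± 0.07, 0.147) and Ccnd1 (-0.06 ± 0.06, 0.646) were not called there. These genes are known to respond to other pathways as well, and Axin2 had counts in 1 library alone.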

How the data were processed

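The data were RNA-seq counts of 15 libraries from 3T3-L1 cells, taken on differentiation day 2. The authors used fastp on the reads, HISAT2 for alignment to mm9 and featureCounts for counting, and deposited raw counts by Entrez Gene number, without normalization. The library kit is NEBNext Ultra in the labels but a directional Ultra II kit in the paper's methods, and the strand setting of the counting is not given in the sources used here, so reads of overlapping genes on opposite strands may be shared. Counts do not separate transcripts of a JMJD1A construct from those of the endogenous gene.

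Symbols came from RefSeq (GRCm38.p6, names only; 24191 of 26301 gene numbers matched, the rest held 0.5% of counts) and positions and exon lengths from GENCODE M1 on NCBIM37. The 6 libraries of the knockdown set were normalized and fitted apart from the 9 of the rescue set with edgeR 4.0.16 in R 4.3.3. TMM normalization and the filterByExpr filter (minimum count 10) were applied, and 12272 and 12557 genes remained. The robust quasi-likelihood test was two-sided with Benjamini-Hochberg adjustment over all genes tested, at 0.05. CPM values use the TMM-scaled totals. Total counts of 11437058 to 25523148 limit precision most for members near the filter. Chi-square per degree of freedom between libraries of a group was 2.07 to 5.44, above sampling noise, and each library counted as 1 replicate. The method was tested on simulated data. Same-numbered libraries of different groups deviated together weakly or not at all, with correlations of their deviations from -0.04 to 0.05, so no block was used.

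The members and lists were chosen with earlier results of these data known. Members named by rule have values in every library of at least 1 set. They are the 5 called members that changed most, per direction, in each of 3 comparisons at a mean of at least 1 CPM. Added to them are those called in opposite directions on knockdown and rescue, and Wnt5a, Wnt10b, Ctnnb1, Axin2, Tcf7l2, Sfrp1 and Sfrp5. For Sfrp1 only the total count and the highest level are given. Of the other pathway genes, at most 4 are named per comparison, by the size of the change, and Tcf7 and the other genes described were chosen after their values were seen. Alternatives were RLE size factors, DESeq2 1.42.0, no filter or 10 counts in every library, a joint fit of all libraries, fits of 2 groups alone, the legacy quasi-likelihood method, a threshold of 0.01, a block by replicate number, and omission of single libraries.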

Additional observations from a re-analysis of the deposited data

How the results depend on the processing

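Of 160 counts of called members under the alternatives, 143 were within 1.5 times the reported count, and of 466 log2 fold changes of the named members 443 kept their call and all kept their direction. The count higher with JMJD1A(WT) than with LacZ, which was 1 (Apc), was 0 with RLE size factors, with DESeq2, with only the 2 groups compared, with the legacy method and at an adjusted p under 0.01, and 0 to 1 with a library left out. The count lower with the mutant than with JMJD1A(WT), which was 2, was 1 at an adjusted p under 0.01 and 0 to 2 with a library left out, with 0 without JMJD1A(WT) replicate 3. The count higher with JMJD1A(H1122A) than with LacZ, which was 1, was 2 with DESeq2 and with all 15 libraries in one fit. The cause of these differences was not tested. The 13 calls higher on knockdown ranged from 12 to 14, with Lrp6 not among them with all 15 libraries in one fit, and the 6 lower with JMJD1A(WT) from 5 to 6 over all alternatives, and the 4 called in opposite directions from 3 to 4.

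The labels give a replicate number but do not say that it pairs libraries. With this number as a block, the count higher with JMJD1A(H1122A) than with LacZ was 2. That higher with JMJD1A(H1122A) than with JMJD1A(WT) was 10, and the other 8 counts were as reported. Over all genes, the block raised the calls of JMJD1A(WT) against LacZ from 568 lower and 625 higher to 683 and 710. On knockdown the calls over all genes fell from 2931 lower and 2741 higher to 2790 and 2635.

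Depth limits the 20 members tested in neither set, of which the highest reached 1.41 CPM (Tcf7), and Wnt9a, which was not tested on knockdown, had an edgeR adjusted p of 0.0484 there without a filter. For Tcf7 the ratio of the control level to 3 counts over the knockdown libraries was 4.04 to 10.1 with a control library left out. This alternative was chosen after seeing the data. With 3 libraries per group, leaving 1 out removed calls of Fzd3 and Ror1 on knockdown, of Fzd4, Tcf7l2 and Apc for JMJD1A(WT) against LacZ, and of Wnt4, Apc, Ryk and Ctnnbip1 for JMJD1A(H1122A) against JMJD1A(WT).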
